A study of Mus musculus with 16 samples.

Results

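The 7 genes described here, Spon1, Mxra8, Ngfr, Kcnh2, Slc26a10, Prtn3 and Tbc1d16, were selected on their large fall in adipocytes of mice labelled as Trib1 knockouts, out of 23420 genes counted in each library. That adipocyte contrast is the readout that chose them, so their adipocyte values are a description and carry no test, and the liver libraries, which the choice did not use, give the test of a genotype difference. No fold cut-off was stated for the choice. In the fall of log2 level the 7 genes ranked between 7 and 123 of the 13795 genes that passed the filter on low counts in adipocytes, so other genes fell as far or further.

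Polyadenylated RNA was profiled in 8 male mice of the C57BL/6 strain. By label 4 were wild-type and 4 lacked Trib1, which encodes the pseudokinase tribbles 1, in adipocytes only. Each mouse gave 1 library of fat cells freed from subcutaneous fat with collagenase and 1 library of whole liver, so that 16 libraries formed 4 groups of 4. The wild-type mice were WT-1135, WT-1136 and WT-1138, taken at postnatal day 76, and WT-1153, taken at day 70. The knockout-labelled mice were KO-1137 and KO-1139, taken at day 76, and KO-1151 and KO-1152, taken at day 70, and values by library are listed in this order. The labels name neither the Cre driver nor the deleted exons.

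Total counts ran from 28560887 to 53716669 per library, and levels are given in CPM, the count relative to the library's size, scaled within a tissue by the trimmed mean of M values (TMM), with mean ± SD over 4 libraries. Of the counts from 1 to 20, 77.9% were even, so low counts are not independent molecules, and counting intervals were taken on halved counts. Where a library has 0 counts of a gene, counting error alone allows up to 3 counts if counts are independent, which is 0.0558 to 0.105 CPM by library. Since low counts are not independent here, this limit is a minimum. The targeted gene did not separate the groups. Trib1 stood at 751.7, 924.5, 1226 and 1293 CPM in wild-type adipocytes, and at 1071, 1273, 1408 and 1345 CPM in those of the mice labelled knockout, a log2 difference of 0.28 ± 0.18 (SE, edgeR adjusted p = 0.241). Because of this the group is called knockout-labelled throughout.

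The genes belong to different systems. Spon1 encodes F-spondin, a secreted matrix protein that binds the amyloid precursor protein and its relatives. Mxra8 encodes an immunoglobulin-domain adhesion protein of the cell surface that alphaviruses of the arthritogenic group use for entry. Ngfr encodes the p75 neurotrophin receptor, known from Schwann cells, neurons and mesenchymal cells such as hepatic stellate cells. Kcnh2 encodes the pore subunit of a voltage-gated potassium channel, called hERG in humans, that repolarizes heart muscle. Slc26a10 is a member of the SLC26 family of anion transporters. Prtn3 encodes proteinase 3, a serine protease stored in neutrophil granules. Tbc1d16 encodes a TBC-domain protein that accelerates GTP hydrolysis by Rab GTPases, the switches of membrane traffic.

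The promoters of 3 of the genes are printed because they show how unlike these start regions are in sequence. RefSeq's promoter table for GRCm38.p6 held 5 of the 7 genes, and Tbc1d16 and Spon1 were not among them. Each window runs 5′ to 3′ on the gene's strand from 250 bases before the annotated start to 50 after it, and capitals mark CpG dinucleotides. The Kcnh2 window lies at chr5:24329542-24329841 on the minus strand, the Prtn3 window at chr10:79879417-79879716 on the plus strand and the Ngfr window at chr11:95587649-95587948 on the minus strand. The Kcnh2 and Prtn3 windows lie inside the GENCODE span of their genes, at a start downstream of the outermost one.
Kcnh2: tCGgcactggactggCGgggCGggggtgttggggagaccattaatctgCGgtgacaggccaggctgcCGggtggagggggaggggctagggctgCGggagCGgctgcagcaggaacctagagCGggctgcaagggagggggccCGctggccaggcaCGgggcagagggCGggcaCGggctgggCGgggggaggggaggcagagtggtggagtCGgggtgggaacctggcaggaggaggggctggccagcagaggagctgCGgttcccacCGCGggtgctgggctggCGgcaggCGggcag
Prtn3: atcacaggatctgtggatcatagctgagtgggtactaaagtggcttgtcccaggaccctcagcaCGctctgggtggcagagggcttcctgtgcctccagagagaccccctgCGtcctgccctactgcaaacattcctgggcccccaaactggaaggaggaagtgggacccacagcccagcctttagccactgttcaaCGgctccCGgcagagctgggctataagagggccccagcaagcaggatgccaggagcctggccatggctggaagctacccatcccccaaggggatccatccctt
Ngfr: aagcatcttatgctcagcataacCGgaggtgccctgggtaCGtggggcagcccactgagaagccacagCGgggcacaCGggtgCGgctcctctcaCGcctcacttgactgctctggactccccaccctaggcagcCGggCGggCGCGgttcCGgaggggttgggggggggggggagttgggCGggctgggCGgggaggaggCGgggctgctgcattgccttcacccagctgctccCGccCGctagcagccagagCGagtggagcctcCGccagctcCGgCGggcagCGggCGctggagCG
The Ngfr and Kcnh2 windows are rich in CpG, with 23 and 19 CpG and a GC content of 71.7% and 74.3%. The Prtn3 and Slc26a10 windows hold 4 CpG each, with a GC content of 60.7% and 53.7%, and the Mxra8 window holds 8, with 58.7%. The median over all 32851 promoters of the table is 7 CpG and 52.7% GC, so the 5 genes lie on both sides of the median CpG count. The C/EBP motif TTGCNNAA, which is its own reverse complement and was searched on both strands, is in none of the 5 windows, and 10.8% of all promoters of this length hold it. C/EBP factors are background here because Trib1 is known to promote the degradation of C/EBP-alpha.

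**Figure D1:**
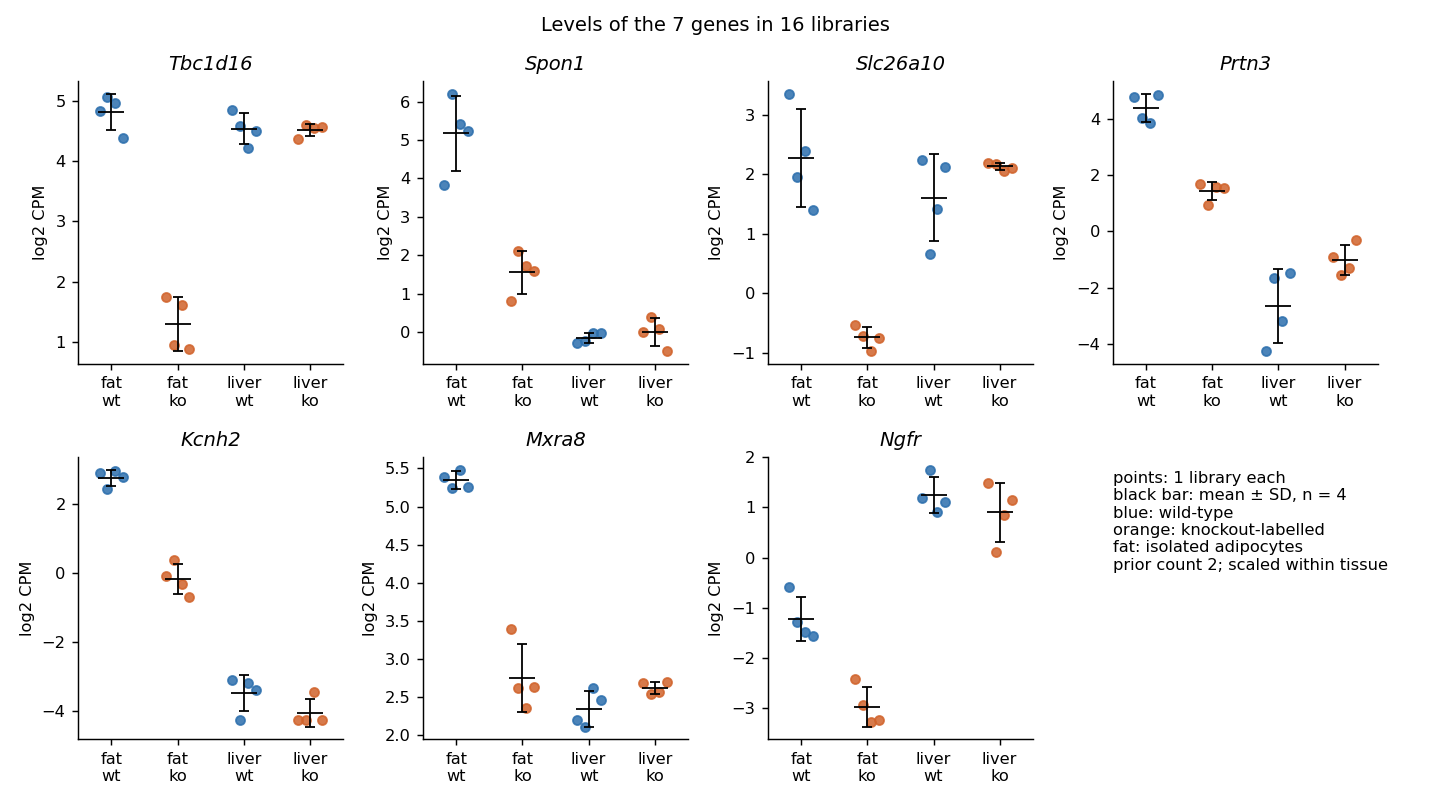
Log2 CPM of each gene (vertical axes, prior count 2, scaled within tissue) in the 16 libraries by tissue and genotype label, with bars for mean ± SD of 4 libraries. In adipocytes (fat) the 4 knockout-labelled points lie under the 4 wild-type points in every panel, while in liver the genotype groups overlap in every panel.

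In adipocytes the knockout-labelled libraries kept between 7.27% and 21% of the wild-type level of these genes (ratios of mean CPM), so the label of genes nearly lost describes a fall to a remainder, not to 0. For all 7 genes every knockout-labelled library was below every wild-type library, as it was for 15.2% of all genes tested. By edgeR's quasi-likelihood test all 7 were also among the genes lower in the knockout-labelled libraries, which were 17.1% of 13795 genes, while 18% were higher and 35.2% changed in all. The genes were chosen for this fall, so nothing is read from these counts. Scaling by library totals in place of TMM moved the median of all genes by -0.19 on the log2 scale and the share of lower among called genes from 48.7% to 75.1%, and the falls of these 7 genes are far larger than this shift.

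Spon1 had the deepest fall, and its wild-type libraries spanned 5.17 times from lowest to highest, the most of the 7 genes. In the wild-type adipocytes it was at 14.2, 73.5, 43.0 and 37.4 CPM, and in the knockout-labelled adipocytes it was at 1.70, 4.31, 3.27 and 2.94 CPM. WT-1135 was lowest of its group, at 3.30 times the highest knockout-labelled library, and WT-1136 was highest. The fitted difference was -3.78 ± 0.48 on the log2 scale (SE, n = 4 per group), and 7.27% of the mean CPM was left.

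Mxra8 was even among the wild-type adipocytes, at 41.9, 37.8, 44.7 and 38.2 CPM in the 4 mice. In the knockout-labelled adipocytes it was at 10.4, 6.10, 5.10 and 6.17 CPM, with KO-1137 above the other three. The fitted log2 difference came to -2.54 ± 0.20, and 17.1% of the mean CPM was left. The lowest wild-type library stood 3.62 times above the highest knockout-labelled one.

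Ngfr was close to the detection limit in adipocytes. It had 32, 15, 12 and 12 counts in the wild-type libraries, or 0.619, 0.363, 0.310 and 0.292 CPM, and 6, 4, 2 and 2 counts in the knockout-labelled libraries, or 0.137, 0.0830, 0.0545 and 0.0577 CPM. WT-1135 and KO-1137 were the highest of their groups. The ratio of the summed halved counts, relative to library totals, was 0.179, with a 95% exact binomial interval of 0.0673 to 0.408 from counting alone. The fitted log2 difference was -2.20 ± 0.46, and 21% of the mean CPM was left. This was the smallest fall of the 7, and Ngfr was the only one of the 7 under a mean of 1 CPM over the 8 adipocyte libraries.

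Kcnh2 had a small spread in wild-type adipocytes, with 7.41, 5.35, 7.76 and 6.90 CPM. In the knockout-labelled adipocytes it was at 0.894, 1.26, 0.764 and 0.577 CPM, so that KO-1139 was highest and KO-1152 lowest. On the log2 scale the groups differed by -2.95 ± 0.25, and 12.8% of the mean CPM was left.

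Slc26a10 varied 3.92 times among wild-type adipocytes, at 10.1, 3.80, 5.20 and 2.58 CPM, with WT-1135 far above the rest. The knockout-labelled libraries held it within a narrow range, at 0.642, 0.560, 0.464 and 0.548 CPM. The log2 difference was -3.29 ± 0.42, and 10.2% of the mean CPM was left. Its exons share 715 bases with B4galnt1 on the opposite strand, and since the strand setting of the counting is not given in the sources used here, reads in the shared stretch cannot be assigned with certainty. B4galnt1, an enzyme of ganglioside synthesis, fell less in adipocytes, from 4.27 to 1.55 CPM, a log2 change of -1.46 ± 0.43.

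Prtn3 stood at 27.5, 16.2, 14.4 and 28.5 CPM in wild-type adipocytes and at 3.16, 1.89, 2.92 and 2.83 CPM in knockout-labelled ones. WT-1135 and WT-1153 were the high wild-type libraries. The fitted log2 difference came to -3.01 ± 0.27, and 12.5% of the mean CPM was left. Per kilobase of exon Prtn3 was, with Mxra8, the most abundant of the 7 genes in wild-type adipocytes, at 12.5 ± 4.26 and 13.9 ± 1.12 CPM per kb. Its exons share 159 bases with Plppr3 on the opposite strand, which was not matched to a row of the count files.

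Tbc1d16 was at 28.5, 33.7, 31.4 and 20.9 CPM in wild-type adipocytes and at 3.32, 1.89, 3.0 and 1.79 CPM in knockout-labelled ones. The lowest wild-type library, WT-1153, stood 6.28 times above the highest knockout-labelled library, the widest gap of the 7 genes. On the log2 scale the groups differed by -3.51 ± 0.24, and 8.75% of the mean CPM was left. Per kilobase Tbc1d16 and Spon1 lay next to each other, at 4.02 ± 0.783 and 4.05 ± 2.35 CPM per kb, within their spread, as did Kcnh2 and Slc26a10 at 1.42 ± 0.219 and 1.35 ± 0.823 CPM per kb. Ngfr came last at 0.115 ± 0.0440 CPM per kb.

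Both ages showed the low level. At day 76, with 3 wild-type and 2 knockout-labelled mice, between 6.90% (Spon1) and 25.6% (Ngfr) of the wild-type mean was left. At day 70, with 1 wild-type and 2 knockout-labelled mice, between 8.31% (Spon1) and 19.6% (Slc26a10) was left, and the single wild-type mouse allows no estimate of spread. Slc26a10 differed most between the ages, with 9.42% left at day 76 and 19.6% at day 70, and WT-1153, the wild-type mouse of day 70, had the lowest level of its group.

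In liver none of these genes was called for a genotype difference. Of the 7 genes 6 passed the filter in liver and 0 were called by edgeR at an adjusted p threshold of 0.05, and 1 of the 6, Prtn3, had an unadjusted p under 0.05. Over all genes 3 of 13288, or 0.0226%, were called in liver (Zfp949, Kng1 and Kng2, named after their values were seen) and 8.62% had an unadjusted p under 0.05, so a count of 0 among 6 genes lies near the background. DESeq2 called 106 genes in liver, or 0.873%, and 0 of the 5 of these genes to which it gave an adjusted p. The liver levels of the 2 genotype groups overlapped for all 7 genes, and over all genes 4.66% had groups that did not overlap, so this too is what most genes showed. The smallest p that an exact two-sided permutation test can give with 4 against 4 libraries is 0.0286.

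Tbc1d16 had similar CPM in liver and in wild-type fat cells, each scaled within its tissue. It stood at 28.8, 23.9, 18.6 and 22.5 CPM in the wild-type livers and at 20.7, 24.2, 23.3 and 23.8 CPM in the knockout-labelled livers of the same mice. The knockout-labelled values lay inside the wild-type range. The log2 difference was -0.03 ± 0.12 (95% interval -0.30 to 0.25, edgeR adjusted p = 0.962).

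Slc26a10 also had counts in both tissues. Wild-type livers had 4.66, 1.53, 2.60 and 4.28 CPM and knockout-labelled livers 4.53, 4.45, 4.11 and 4.25 CPM. The wild-type livers spanned 3.05 times from lowest to highest and the knockout-labelled ones 1.10 times. The fitted log2 difference came to 0.40 ± 0.29 (95% interval -0.23 to 1.03, edgeR adjusted p = 0.713). B4galnt1, which shares exon bases with it, was at 69.0 to 112 CPM in liver. Its liver mean was 95.9 CPM against 3.80 CPM for Slc26a10, while in wild-type adipocytes the means were 4.27 and 5.43 CPM. The uncertainty of strand is therefore larger for the liver values of Slc26a10 than for the adipocyte values.

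Ngfr was the one gene with a much higher level in liver than in fat cells. Wild-type livers had 2.23, 3.32, 1.82 and 2.11 CPM and knockout-labelled livers 2.76, 1.03, 1.75 and 2.18 CPM. KO-1139 was lowest and WT-1136 highest. On the log2 scale the groups differed by -0.30 ± 0.30 (95% interval -0.95 to 0.36, edgeR adjusted p = 0.799).

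Mxra8 was at 4.53, 4.28, 6.07 and 5.47 CPM in wild-type livers and at 6.37, 5.8, 5.88 and 6.46 CPM in knockout-labelled livers. The groups overlapped through WT-1138. The log2 difference was 0.26 ± 0.14 (95% interval -0.04 to 0.57, edgeR adjusted p = 0.639), and the exact permutation p was 0.0857.

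Spon1 was low in liver, at 0.766, 0.797, 0.925 and 0.925 CPM in the wild-type and 0.954, 1.26, 1.01 and 0.661 CPM in the knockout-labelled livers. KO-1139 was highest and KO-1152 lowest, so that the knockout-labelled range enclosed the wild-type one. The fitted log2 difference came to 0.18 ± 0.26 (95% interval -0.40 to 0.76, edgeR adjusted p = 0.874).

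Prtn3 had few liver counts, 0, 8, 2 and 14 in the wild-type and 14, 10, 18 and 35 in the knockout-labelled livers. WT-1135 had none and KO-1152 the most. On the log2 scale the groups differed by 1.51 ± 0.66 (95% interval 0.058 to 2.96, not adjusted for the number of genes), opposite in sign to the adipocyte difference. The edgeR adjusted p was 0.567 and the exact permutation p was 0.0571, so Prtn3 did not pass. Kcnh2 was at the detection limit in liver, with 2, 0, 2 and 2 counts in the wild-type and 0, 0, 2 and 0 in the knockout-labelled livers. It did not pass the filter, no fold is given, and the exact permutation p of its log2 CPM was 0.143.

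**Figure D2:**
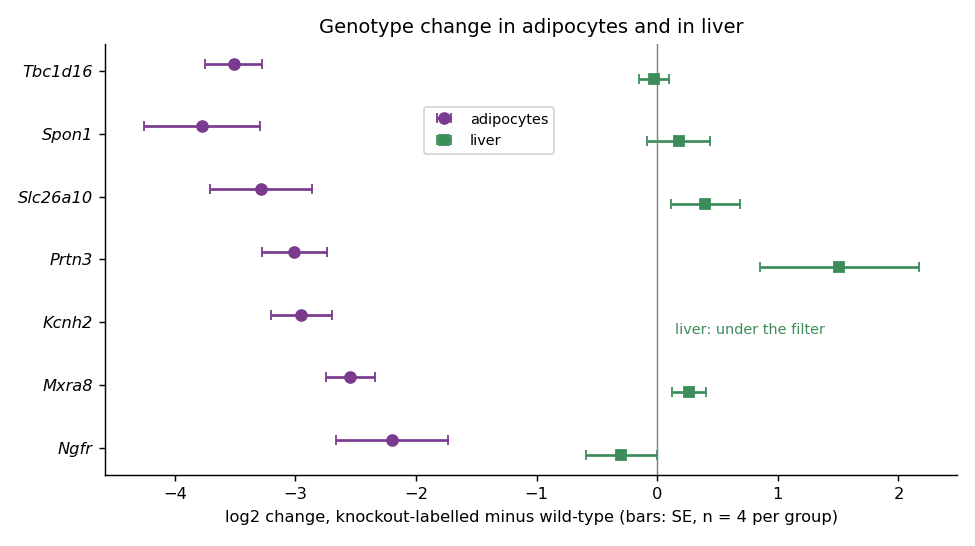
Fitted log2 change (knockout-labelled minus wild-type, horizontal axis, bars are SE, n = 4 per group) of each gene in adipocytes (circles), on which the genes were chosen, and in liver (squares). The adipocyte changes lie between -3.78 and -2.20 and the liver changes between -0.30 and 1.51, with Kcnh2 not tested in liver.

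The 7 genes thus fell into different tissue patterns, given here for wild-type mice without a test because the wild-type adipocytes entered the choice. Spon1, Prtn3 and Mxra8 were higher in adipocytes than in liver, by 5.07 ± 0.47, 6.47 ± 0.50 and 2.45 ± 0.13 on the log2 scale. Kcnh2 had 1187 counts over the 4 wild-type adipocyte libraries and 6 over the 4 wild-type livers. Ngfr was lower in adipocytes, by -3.09 ± 0.34. For Tbc1d16 and Slc26a10 the differences were smaller, at -0.26 ± 0.17 and 0.19 ± 0.44. Scaling by library totals moved the median of all genes in this contrast by 0.65, and the Tbc1d16 difference then became 0.39 and that of Slc26a10 0.86, so the sign of the first and the size of the second depend on the scaling. Leaving out WT-1135 moved the Slc26a10 difference to -0.09, and leaving out WT-1153 moved it to 0.56. The Slc26a10 difference also carries the uncertainty of strand from B4galnt1, which is larger in liver. Defining markers matched the tissue labels, with adipocyte markers summing to 44740 to 62780 CPM in wild-type fat cells and hepatocyte markers to 107300 to 134400 CPM in wild-type liver.

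RNA of other cells of fat was lower in the knockout-labelled adipocyte libraries as well. Of 36 tested markers of fibroblasts and progenitors, endothelium and mural cells, 33 fell and 0 rose, and their mean log2 CPM was 4.70 to 6.00 in wild-type libraries against 3.19 to 4.42 in the others, a difference of -1.59. The endothelial markers Cdh5, Kdr and Pecam1 fell by 1.85, 1.89 and 1.86 on the log2 scale, and the fibroblast markers Dpt, Col3a1 and Dcn fell by 0.82, 0.67 and 1.42. Other cell types of fat did not all share this fall. Of 11 tested macrophage markers 1 fell and 0 rose, and of 7 tested lymphocyte markers 2 fell and 0 rose. Over all genes 17.1% were lower. The macrophage markers summed to 365 to 565 CPM in wild-type and 155 to 557 CPM in knockout-labelled libraries, so the groups overlapped. Markers of mature adipocytes did not fall, with 5 of 15 higher and 0 lower. In bulk libraries fewer cells of a type and less RNA per cell cannot be told apart, and since the score of the 2 genotype groups did not overlap, score and genotype label cannot be told apart either.

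The 7 genes followed this score to different degrees among libraries of one label. With the deviations from the group mean over 8 libraries, as a description, Ngfr (Pearson r 0.92, Spearman rho 0.95), Slc26a10 (0.83 and 0.88) and Mxra8 (0.74 and 0.55) moved with the score. By Pearson r Kcnh2 (0.34 and 0.57), Tbc1d16 (0.37 and 0.43) and Prtn3 (-0.01 and -0.14) did so less. By Spearman rho Kcnh2 was about level with Mxra8. Spon1 had the opposite sign by both (-0.59 and -0.29). Without WT-1135 and KO-1137, the libraries with the highest scores of their groups, r was 0.73 for Ngfr, 0.76 for Slc26a10, 0.56 for Mxra8, 0.32 for Kcnh2, 0.06 for Tbc1d16, -0.93 for Prtn3 and 0.54 for Spon1, so the values of Spon1, Prtn3 and Tbc1d16 rest on those 2 libraries. The libraries share their depth and cell make-up, so no p is given.

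**Figure D3:**
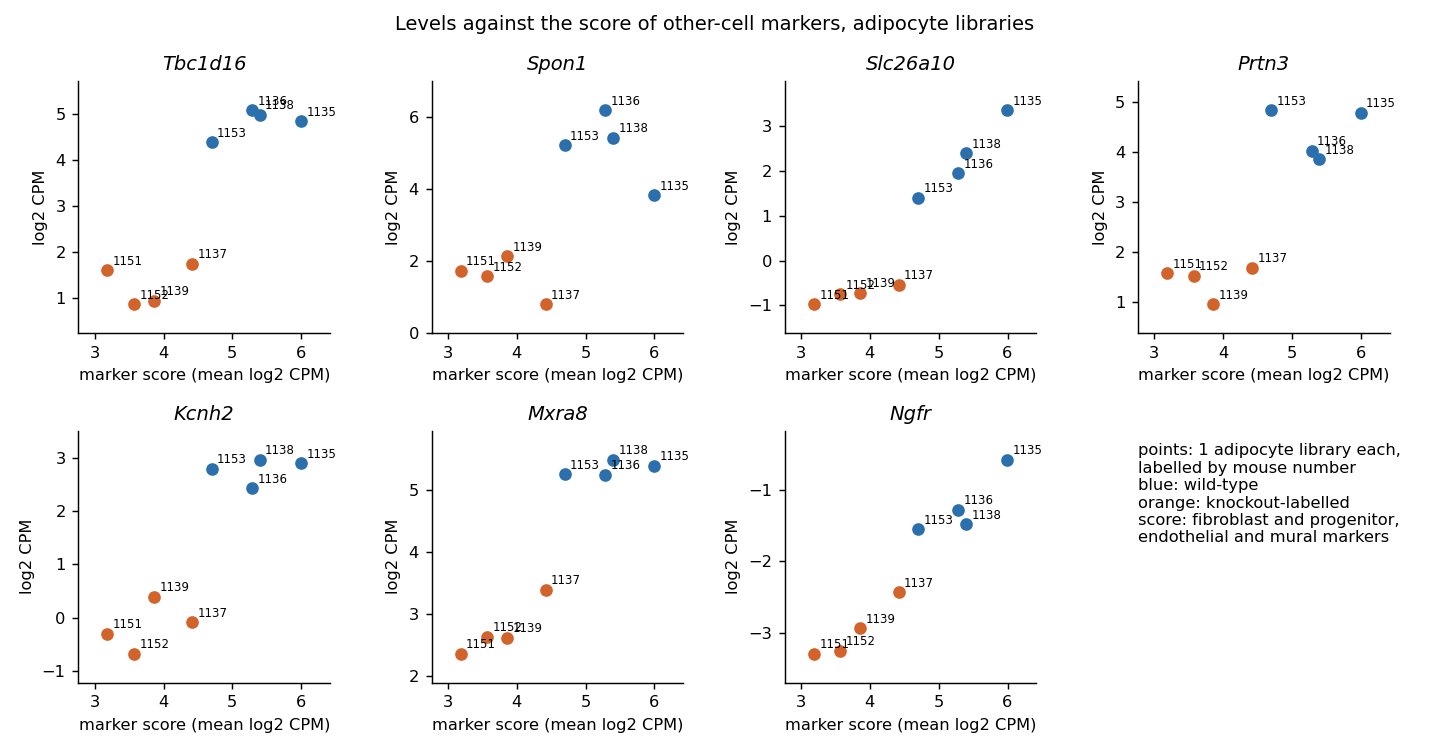
Log2 CPM of each gene (vertical axes) against the mean log2 CPM of 37 fibroblast, progenitor, endothelial and mural markers (horizontal axes) in the 8 adipocyte libraries, labelled by mouse number. Wild-type libraries (blue) have scores of 4.70 to 6.00 and knockout-labelled ones (orange) 3.19 to 4.42; Ngfr and Slc26a10 follow the score within each group, and Prtn3 does not.

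With the score as a covariate in the adipocyte fit the log2 difference was -3.02 for Prtn3, -3.08 for Tbc1d16 and -2.64 for Kcnh2. It was -1.88 for Mxra8, -1.36 for Slc26a10 and -0.74 for Ngfr, smaller in size than without the score, and -5.16 for Spon1, larger. These differences have no test, and the fit rests on scores that differ between the groups.

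**Figure D4:**
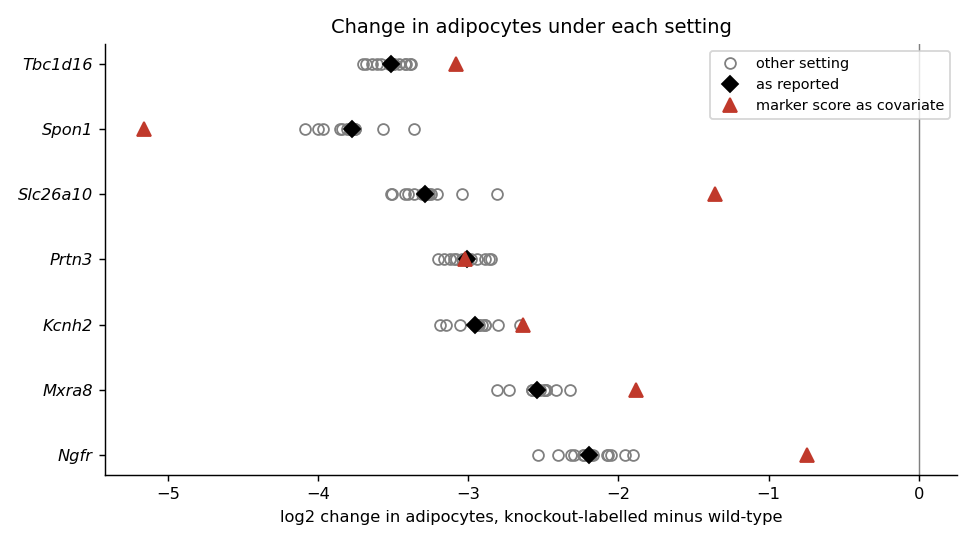
Log2 change in adipocytes (knockout-labelled minus wild-type, horizontal axis) of each gene as reported (diamonds), with the marker score as covariate (triangles) and under the other settings (circles), which include leaving out each library. Every value is negative, and the covariate moves Slc26a10 to -1.36 and Ngfr to -0.74.

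Among one another the genes did not move as a block within the groups. Slc26a10 and Ngfr deviated together (r = 0.77 over 8 libraries, a description), as did Mxra8 and Ngfr (r = 0.64). Spon1 ran against Ngfr (r = -0.72), Prtn3 (r = -0.71) and Slc26a10 (r = -0.69). In WT-1135 Spon1 was lowest of the wild-type libraries and Ngfr and Slc26a10 were highest.

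The families and partners of each gene, from fixed lists, were tested across all genes in adipocytes, and the counts below stand against 18% higher, 17.1% lower and a median log2 change of -0.01 over all genes. Of 5 binding partners of F-spondin 3 rose and 1 fell, and the median was 0.36. App, the amyloid precursor protein, rose from 446.6 ± 74.4 to 900.6 ± 63.6 CPM, a log2 change of 1.01 ± 0.13, and its relative Aplp2 and the lipoprotein receptor Vldlr rose by 0.36 ± 0.11 and 0.39 ± 0.08. Of 12 thrombospondin and spondin matrix genes 7 fell and 1 rose, and the median was -0.95. The 3 most abundant, Adamts1 (-0.23), Thbs1 (0.14) and Adamts5 (0.24), did not pass. Thbs2, chosen after its values were seen, fell from 63.1 to 12.6 CPM.

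Of the 4 integrin genes listed as partners of Mxra8, Itga5, the alpha chain of a fibronectin receptor, fell by 1.17 on the log2 scale (SE 0.25), and the more abundant Itgb1 and Itgav did not pass. Mxra7, named like Mxra8 for its association with matrix remodelling, fell by 1.13 (SE 0.31).

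Of 9 tested neurotrophins and receptors 3 rose and 1 fell, with a median of 0.12. Sort1, encoding sortilin, a co-receptor of p75 for proneurotrophins, rose by 0.39 ± 0.11. The neurotrophin receptor kinase genes Ntrk2 (0.12) and Ntrk3 (0.04) did not pass. Of 7 p75 signalling partners 1 rose and 1 fell, and Rtn4, the gene of the Nogo proteins, rose by 0.45 ± 0.11. Schwann cell markers did not move as 1 group beside Ngfr, with 1 of 9 higher, 2 lower and a median of -0.72. The sodium channel gene Scn7a rose by 1.16 ± 0.16, and Pmp22 (-0.05) and Mbp (0.11), both myelin protein genes, did not pass. Their summed level was 516 to 590 CPM in wild-type libraries against 820 to 981 CPM in the others, and the part of Schwann cells in the Ngfr values was not tested.

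Of the 3 tested genes of the EAG potassium channel family and its subunits 2 fell. Kcne4, an inhibitory beta subunit of potassium channels, fell from 4.14 to 0.820 CPM, by 2.33 on the log2 scale (SE 0.36), and Kcne1l fell by 1.61 (SE 0.37). Kcnh4 (0.03) did not pass. Of 17 other potassium channel genes tested 4 rose and 6 fell, and their summed level was 191 to 229 CPM in wild-type adipocytes against 362 to 414 CPM in the others. The background potassium channels Kcnk3 and Kcnk2 rose by 0.86 ± 0.08 and 1.47 ± 0.13.

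Of 3 tested SLC26 transporters 1 fell, Slc26a2, the sulfate transporter, by 0.28 on the log2 scale (SE 0.09, edgeR adjusted p = 0.0437). Slc26a11 (-0.09) and Slc26a6 (0.02), anion transporter genes as well, did not pass.

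Prtn3 is known as a neutrophil gene, and the other granule genes and markers of neutrophils were counted beside it. Of 8 tested 2 rose and 0 fell, against 18% and 17.1% of all genes. Mmp9, a gelatinase of neutrophil granules and other cells, was the most abundant, at 6.94 ± 3.18 CPM in wild-type adipocytes against 3.77 ± 3.65 CPM in the knockout-labelled group, and did not pass (log2 difference -0.88 ± 0.59). Lcn2, encoding lipocalin 2, rose by 1.58 ± 0.19. Elane, the neutrophil elastase gene 3072 bases downstream of Prtn3, was at 2.04 ± 0.398 CPM in wild-type adipocytes against 2.83 ± 0.618 CPM in the knockout-labelled group and did not pass. S100a8, a calcium-binding protein gene, was the other gene that rose, by 1.64 ± 0.42 on the log2 scale. It had 218 counts over the 4 wild-type libraries against 666 over the 4 knockout-labelled ones. The 4 less abundant genes that follow were chosen after their values were seen, and none was called. S100a9, a calcium-binding protein gene, had 151 counts over the 4 wild-type libraries against 74 over the 4 knockout-labelled ones, Ltf, encoding lactoferrin, 34 against 10, and Mpo, encoding myeloperoxidase, 10 against 37. Ctsg, encoding cathepsin G, had 0 against 2. The marker list of neutrophils summed to 4.78 to 8.12 CPM in wild-type libraries against 8.34 to 11.4 CPM in the others, and the part of neutrophils in the Prtn3 values was not tested. Of 7 proteinase 3 inhibitors 2 rose and 1 fell.

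Of 35 relatives of Tbc1d16, the RabGAP genes with a TBC domain, 13 rose and 6 fell, with a median of 0.11. Tbc1d4, the Akt substrate that controls glucose transporter traffic, rose by 0.99 ± 0.13, Tbc1d20 by 0.51 ± 0.10 and Tbc1d9b by 0.29 ± 0.08. Of 10 Rab GTPases of early and recycling endosomes 1 rose and 0 fell. In liver no gene of any of these lists was called by edgeR.

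The genes lie on 5 chromosomes, and of their nearest counted neighbours 1 fell, 2 rose and the others did not pass or were too low to test (coordinates on GRCm38). Spon1 lies at chr7:113765998-114043370 on the plus strand, and of its neighbours Far1 did not pass and Rras2 rose by 0.48 ± 0.11. Mxra8 lies at chr4:155839680-155844088 on the plus strand between Aurkaip1 and Dvl1, neither of which passed. Ngfr lies at chr11:95568818-95587735 and Tbc1d16 at chr11:119143045-119228499, both on the minus strand. Phb, above Ngfr, rose by 0.32 ± 0.08. Ccdc40, which begins 72 bases from Tbc1d16, had 19 counts over the wild-type adipocyte libraries, 0 over those labelled knockout, and was not tested. Kcnh2 lies at chr5:24319589-24351604 on the minus strand between Nupl2 and Nos3, neither of which passed. Prtn3 at chr10:79874476-79883174 on the plus strand has Ptbp1 (-0.02, did not pass) below it. Slc26a10 at chr10:127171393-127180645 on the minus strand has Os9 below it, which did not pass, and Arhgef25 above it, which fell by 1.82 on the log2 scale (SE 0.30) from 3.80 to 1.07 CPM.

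The genes most like each of the 7 over all 16 libraries, by Pearson r of log2 CPM among 13325 genes, were different for each. For Tbc1d16 they were Cyp2f2 (r = 0.96) and Tapbpl (0.96), and Cyp2f2, a cytochrome P450 gene, went from 263 ± 43.7 to 1.11 ± 0.147 CPM in adipocytes while its liver mean was 1525 CPM. For Spon1 they were Srpx2 (0.93) and Plod2 (0.93), and for Mxra8 Gas6 (0.97) and Gbp4 (0.95). For Ngfr they were Ncald (0.99) and Sorbs2 (0.99), both higher in liver than in fat cells as Ngfr was. For Kcnh2 they were Capn5 (0.98) and Dock9 (0.98), for Slc26a10 Zdhhc18 (0.93) and Clec14a (0.93), and for Prtn3 Phactr1 (0.95) and Ccdc149 (0.95). The correlations hold the tissue difference and the genotype difference together and carry no p.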

How the data were processed

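Each library has a deposited file of raw counts for gene symbols. The submitters' processing notes name STAR 2.5.2b, featureCounts 1.5.0 and bcl2fastq 2.17, and build mm10. No annotation, strand setting or rule for multiple mapping is given in the sources used here. Genotype contrasts were fitted within each tissue on the deposited counts of 23420 genes with edgeR 4.0.16 (R 4.3.3, quasi-likelihood test, TMM, filterByExpr, two-sided, Benjamini-Hochberg over all genes tested). Calls have an adjusted p under 0.05. DESeq2 1.42.0, other scalings, no filter, halved counts, age, the marker score and each library left out were the alternatives. Of the symbols, 21777 were placed with GENCODE M21. Libraries with the same number are from 1 mouse per the labels, and across genes the paired deviations from group means had r of -0.0918 to 0.142.

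The 7 genes and all lists were chosen with earlier results of these data known. The text names these 7 genes, up to 3 genes of each list, those with the highest wild-type adipocyte mean, the nearest counted gene on each side (some are not reported here) and the 2 genes of highest r. Thbs2, S100a9, Ltf, Mpo, Ctsg and the genes called in liver are outside this rule. Same-group libraries come from different mice, so p-values measure the spread between these mice. The labels ask for a lower RNA integrity in fat than in liver.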

Additional observations from a re-analysis of the deposited data

Results flagged for a closer look

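In the knockout-labelled livers Kcnh2 had 2 counts in KO-1151, or 0.0397 CPM, and 0 in the other three libraries, which set that library apart from its group. The value is under the 3 counts that a count of 0 allows at the least. When the other libraries of a group all have 0, any count above 0 is set apart in this way, so nothing is read from it.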

How the results depend on the processing

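In adipocytes all 7 genes were lower under every alternative that kept them in the fit. The number of genes called there was 4849. With fewer mice in the fit it was 1730 for mice of day 76 only and 3553 to 5296 when 1 library was left out. With 1 more term in the fit it was 4571 for age as a covariate and 451 for the marker score. Unlike age, the marker score did not overlap between the genotype groups. In liver 0 of the genes with an adjusted p were called under the 16 alternatives, but Kcnh2 and Prtn3 had no adjusted p under some of them, DESeq2 among these, and Prtn3 was fitted in 14 of the 16. The genes called in liver numbered 3, and 106 by DESeq2, 5 with no low count filter, 0 with mice of day 76 only and 1 to 3 when 1 library was left out (1 without KO-1137, WT-1138 or KO-1139). The liver difference of Prtn3, not called, ran from 1.14 without WT-1135 to 2.13 without WT-1153. The liver difference of Tbc1d16 changed sign to 0.085 without WT-1135 and to 0.018 without KO-1137, with a range of -0.12 to 0.085 over the libraries left out. With the mouse as a replicate block, as a paired analysis of the wild-type tissues, 10759 genes were called against 11154 without it, and the genotype contrasts share no mice. Depth limits Kcnh2 and Prtn3 in liver and Ngfr in adipocytes, which rest on few counts. The cause of these changes was not tested.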
